A study of Mus musculus with 4 samples.

Results

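Cells make cholesterol from acetyl-CoA, through mevalonate, isoprenoid diphosphates and squalene, in a chain of enzymes that act mostly at the endoplasmic reticulum. The transcription factor SREBP2 switches the genes of this chain on together when sterols in that membrane are low: its escort Scap carries it to the Golgi for cleavage, and the Insig proteins hold both back when sterols are plentiful. Alveolar macrophages live on the airspace surface of the lung and take up surfactant, which is rich in phospholipid and cholesterol. The 27 genes described here encode enzymes of cholesterol synthesis, the SREBP2 regulators and a few further sterol-regulated genes. They were chosen by name, from 19751 genes with a probe on the array, and all 27 were measured.

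Gene expression was measured on 4 single-colour (Cy3) Agilent mouse arrays, 2 of Bach2KO and 2 of WT alveolar macrophage RNA. Bach2KO mice lack Bach2, a repressor that binds Maf recognition elements as a partner of small Maf proteins; the labels name no other allele, strain, sex, age or treatment, and the study concerned the need for Bach2 in surfactant homeostasis. Sorted Bach2KO cells came from a pool of 3 mice (series design text) or 4 mice (treatment protocol), and sorted WT cells from a pool of 8 mice. The pooled RNA of each genotype was divided in 2 before amplification, so both arrays of each genotype repeat the measurement of 1 RNA sample. No test between the genotypes was therefore possible, no p-value is given, and every SD is over 2 arrays of the same RNA.

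Between 27125 and 27918 of 39429 probes were well above background on an array, and 15123 genes were measured, that is, had a probe that passed this limit on both Bach2KO arrays, both WT arrays or all 4. Values are log2 processed signals relative to the array's own 75th percentile, which was 947 and 896 on the Bach2KO arrays and 1190 and 1418 on the WT arrays; the brightest probe stands for its gene. The 2-fold rule calls a gene higher (or lower) in Bach2KO if each of the 4 possible pairings of Bach2KO with WT arrays gave 2-fold or more in the same direction. A further condition applied where the genotype with the lower signal was well above background on neither array. The difference then had to reach 2-fold also with that genotype's values raised at least to the array's lowest well-above-background signal. The scaling decides many of the calls and signs. Scaling to 9 added spike-in controls lowered every Bach2KO minus WT difference by the same amount (a shift of -0.76 on the log2 scale), and the median over all measured genes was -0.66 in place of 0.10. Directions below hold with the 75th percentile unless said otherwise, and a difference set against the median of all genes is the same under both scalings. The single Bach2 probe had log2 signals of -5.03 and -8.00 on the Bach2KO arrays and of -6.23 and -6.18 on the WT arrays, was well above background on 1 array of each genotype, and could not check the genotype labels. The 12 alveolar macrophage markers examined were measured in both genotypes, with summed linear signals, in units of the 75th percentile, of 874 and 869 on the Bach2KO arrays and 1266 and 1118 on the WT arrays. By the 2-fold rule 5 of them were lower in Bach2KO, 1 higher and 6 neither, against 5.55% lower and 8.75% higher of all measured genes.

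Cholesterol synthesis transcripts were on the whole more abundant in the Bach2KO RNA than in the WT RNA, by amounts that varied along the chain. By the 2-fold rule 6 of the 27 genes were higher (Dhcr7, Fdps, Sc5d, Tm7sf2, Sqle and Msmo1), none was lower and 21 met neither condition, where 8.75% of all measured genes were higher and 5.55% lower. At 1.5-fold in all pairs 13 of the 27 were higher and none lower, against 15.7% and 11.8% of all genes. The Bach2KO arrays lay above both WT arrays for 23 genes and below both for 4 (Lbr, Scap, Ggps1 and Acss2), which is the position of 48.4% and 37.4% of all measured genes, so that separation alone says little. The median difference was 0.61, against 0.10 for all measured genes, and 22 of the 27 lay above the median of all genes. With spike-in scaling the median was -0.15, 8 genes stayed above 0 (the 6 named above, with Tmem97 and Fdft1), 19 were below 0, none was called higher, and Lbr was called lower. All 27 genes were well above background on all 4 arrays, so no value below is a bound.

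**Figure D1:**
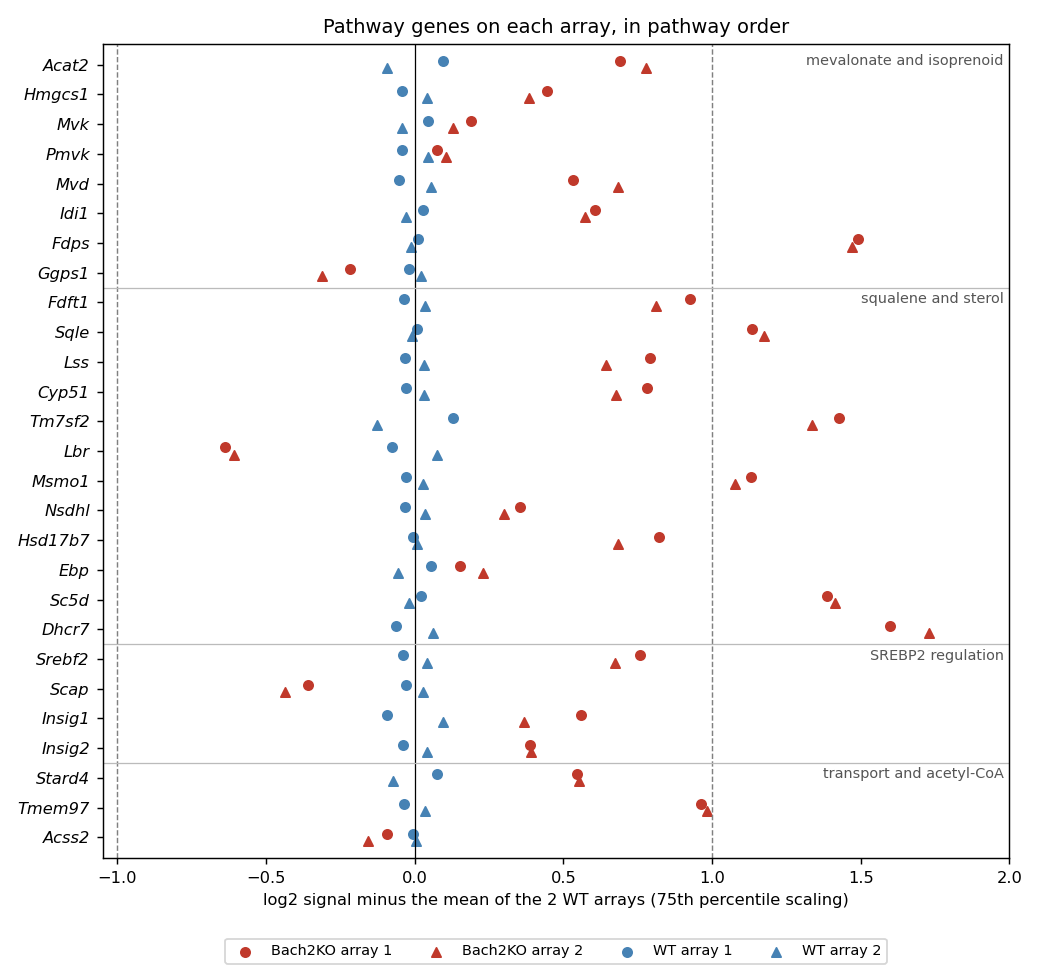
Signals of the 27 genes on each array, in pathway order, as log2 signal minus the mean of that gene's 2 WT arrays. Red marks are Bach2KO arrays and blue marks WT arrays, circles array 1 and triangles array 2, and dashed lines mark a 2-fold difference. Dhcr7, Fdps, Sc5d and Tm7sf2 lie farthest to the right, and the Bach2KO arrays of Lbr, Scap, Ggps1 and Acss2 lie to the left of the WT arrays with 75th percentile scaling; with spike-in scaling all red marks move left by 0.76.

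Arrays of the same RNA agreed closely for these genes. The absolute difference between the 2 Bach2KO arrays had a median of 0.06 and reached 0.19 at most (Insig1), and that between the 2 WT arrays had a median of 0.07 and reached 0.26 (Tm7sf2).

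The chain opens with the enzymes that build mevalonate. Acat2, the cytosolic thiolase that joins acetyl-CoA units, had log2 signals of -1.32 and -1.23 on the Bach2KO arrays and of -1.91 and -2.10 on the WT arrays, a difference of 0.73. Hmgcs1, the cytosolic HMG-CoA synthase, had 3.82 and 3.76 on the Bach2KO arrays and 3.34 and 3.42 on the WT arrays, a difference of 0.41. The arrays of the genotypes did not overlap for either gene, and only Acat2 passed 1.5-fold in all pairs; both differences were below 0 with spike-in scaling (-0.02 for Acat2 and -0.35 for Hmgcs1).

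The kinases that phosphorylate mevalonate stood at the level of the average gene. Mvk, mevalonate kinase, had log2 signals of 2.81 and 2.75 on the Bach2KO arrays and of 2.66 and 2.58 on the WT arrays, a difference of 0.16 that its other probe matched (0.17). Pmvk, phosphomevalonate kinase, had 3.74 and 3.77 on the Bach2KO arrays and 3.62 and 3.71 on the WT arrays, a difference of 0.09, with -0.04 for its other probe. These 2 differences ranked at percentiles 54.2 and 49.3 of all measured genes. The next enzyme, the decarboxylase Mvd, had 2.64 and 2.79 on the Bach2KO arrays and 2.05 and 2.16 on the WT arrays, and Idi1, which isomerises the resulting isopentenyl diphosphate, had 2.75 and 2.72 on the Bach2KO arrays and 2.18 and 2.12 on the WT arrays. Differences were thus 0.61 for Mvd and 0.59 for Idi1, close to 1.5-fold, without reaching 1.5-fold in every pair, and -0.15 and -0.17 with spike-in scaling.

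At the farnesyl diphosphate branch point the enzymes diverged. Fdps, which makes farnesyl diphosphate for sterols, prenylation and dolichol, had log2 signals of 4.60 and 4.57 on the Bach2KO arrays and of 3.12 and 3.09 on the WT arrays, a 2.79-fold higher signal in Bach2KO. Ggps1, which extends farnesyl diphosphate to the geranylgeranyl diphosphate used for protein prenylation, had 0.44 and 0.35 on the Bach2KO arrays and 0.64 and 0.68 on the WT arrays, a difference of -0.26, with -0.08 for its other probe. Fdps ranked at percentile 93.6 of all measured genes and Ggps1 at percentile 27.3. Of the 8 mevalonate and isoprenoid genes Fdps alone was called higher, none was lower and 7 were neither, with a median difference of 0.50, or -0.26 with spike-in scaling.

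The branch from squalene to cholesterol held 5 of the 6 called genes. Of its 12 members 5 were higher, none lower and 7 neither, and 9 were higher at 1.5-fold; the median difference was 0.81, or 0.05 with spike-in scaling. The difference between this branch and the mevalonate branch was not tested. Fdft1, the squalene synthase that commits farnesyl diphosphate to sterols, had log2 signals of 2.10 and 1.99 on the Bach2KO arrays and of 1.14 and 1.21 on the WT arrays, a difference of 0.87 that met the 1.5-fold rule. Its dimmer probe differed by 1.63 (-3.36 and -3.33 on the Bach2KO arrays, -4.90 and -5.04 on the WT arrays), so Fdft1 was called when the probes of a gene were averaged. Sqle, the squalene epoxidase of the first oxygen-requiring step, had 3.81 and 3.85 on the Bach2KO arrays and 2.69 and 2.67 on the WT arrays, 2.23-fold higher.

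Lss, which cyclises oxidosqualene to lanosterol, had log2 signals of 0.22 and 0.07 on the Bach2KO arrays and of -0.60 and -0.54 on the WT arrays. Cyp51, the cytochrome P450 that demethylates lanosterol, had 0.15 and 0.05 on the Bach2KO arrays and -0.66 and -0.60 on the WT arrays. Their differences were nearly the same, 0.72 for Lss and 0.73 for Cyp51, past 1.5-fold but not 2-fold in all pairs, and -0.04 and -0.03 with spike-in scaling.

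A pair of enzymes can carry out the next reduction, of the sterol double bond left by Cyp51, and their transcripts went opposite ways with 75th percentile scaling and stood apart under either scaling. Tm7sf2, the dedicated sterol reductase of the endoplasmic reticulum, had log2 signals of 1.79 and 1.70 on the Bach2KO arrays and of 0.49 and 0.24 on the WT arrays, 2.60-fold higher, and its other probe gave 2.43-fold. Lbr, the lamin B receptor of the inner nuclear membrane, whose sterol reductase domain has the same activity, had -1.57 and -1.54 on the Bach2KO arrays and -1.01 and -0.86 on the WT arrays, a difference of -0.62. The dimmer Lbr probe, which was not well above background on either Bach2KO array, also had lower signals in Bach2KO (-5.97 and -6.63, against -5.30 and -5.23 in WT). Tm7sf2 ranked at percentile 93.0 of all measured genes and Lbr at percentile 13.5, the lowest of the 27. With spike-in scaling the differences were 0.62 for Tm7sf2 and -1.38 for Lbr, which was then called lower.

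The demethylation complex was uneven. Msmo1, the sterol methyl oxidase, had log2 signals of 4.72 and 4.66 on the Bach2KO arrays and of 3.56 and 3.61 on the WT arrays, 2.15-fold higher, the smallest difference among the 6 called genes. Nsdhl, the decarboxylating dehydrogenase that acts on its product, had 0.33 and 0.28 on the Bach2KO arrays and -0.06 and 0.01 on the WT arrays, a difference of 0.33, with 0.42 for its other probe. Hsd17b7, the ketosteroid reductase of the same complex, had -0.27 and -0.41 on the Bach2KO arrays and -1.10 and -1.09 on the WT arrays, a difference of 0.75, with 0.62 for its other probe. Msmo1 thus stayed above 0 with spike-in scaling (0.35), whereas Nsdhl (-0.43) and Hsd17b7 (-0.01) did not.

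The closing enzymes included both the largest difference and one of the smallest. Ebp, the sterol isomerase, had log2 signals of 4.91 and 4.99 on the Bach2KO arrays and of 4.82 and 4.70 on the WT arrays, a difference of 0.19. Sc5d, the lathosterol oxidase that follows it, had 2.20 and 2.23 on the Bach2KO arrays and 0.83 and 0.79 on the WT arrays (means 2.21 ± 0.02 and 0.81 ± 0.03, SD, n = 2 arrays each), 2.64-fold higher. Dhcr7, whose reduction yields cholesterol, had 1.51 and 1.64 on the Bach2KO arrays and -0.15 and -0.03 on the WT arrays (means 1.57 ± 0.09 and -0.09 ± 0.09, SD, n = 2 arrays each), 3.17-fold higher, with array pairs from 1.54 to 1.79. Dhcr7 ranked at percentile 94.6 of all measured genes, so even the largest difference of the 27 was exceeded by many genes elsewhere in these RNA samples.

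The promoter windows of 6 genes, from 250 bases before to 50 bases after the annotated start, are shown because they include the called genes with an entry (Dhcr7, Sc5d, Tm7sf2 and Msmo1), the gene with a match to the sterol regulatory element core (Hmgcs1) and the gene with the lowest difference (Lbr). Sequences are from RefSeq, build GRCm38.p6, read 5′ to 3′ along the gene. Capitals mark CCAAT, the box bound by NF-Y, a known partner of SREBP2, then TCACNCCAC, a core of the sterol regulatory element, and TGAGTCA, the core of Maf recognition and AP-1 elements, each on either strand. Dhcr7 had other annotated windows, which held none of these motifs and are not shown.
Dhcr7 (chr7:143829964-143830263, plus strand): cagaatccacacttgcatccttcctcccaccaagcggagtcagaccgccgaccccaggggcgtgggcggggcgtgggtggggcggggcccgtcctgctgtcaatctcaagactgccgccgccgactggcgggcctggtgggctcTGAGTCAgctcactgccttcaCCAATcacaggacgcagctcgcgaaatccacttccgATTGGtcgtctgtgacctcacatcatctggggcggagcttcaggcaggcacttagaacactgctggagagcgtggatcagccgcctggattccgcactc
Sc5d (chr9:42264251-42264550, minus strand): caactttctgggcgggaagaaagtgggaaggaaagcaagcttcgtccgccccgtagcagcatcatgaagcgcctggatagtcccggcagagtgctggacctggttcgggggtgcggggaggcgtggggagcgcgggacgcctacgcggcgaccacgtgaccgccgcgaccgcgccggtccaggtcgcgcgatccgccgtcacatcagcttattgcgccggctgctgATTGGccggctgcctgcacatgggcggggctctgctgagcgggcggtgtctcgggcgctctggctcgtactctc
Tm7sf2 (chr19:6067801-6068100, minus strand): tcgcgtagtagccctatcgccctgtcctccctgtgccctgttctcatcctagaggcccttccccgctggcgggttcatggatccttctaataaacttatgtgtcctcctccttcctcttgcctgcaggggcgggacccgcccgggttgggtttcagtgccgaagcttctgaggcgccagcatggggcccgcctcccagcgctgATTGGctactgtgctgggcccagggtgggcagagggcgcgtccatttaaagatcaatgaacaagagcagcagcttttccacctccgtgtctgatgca
Msmo1 (chr8:64733529-64733828, minus strand): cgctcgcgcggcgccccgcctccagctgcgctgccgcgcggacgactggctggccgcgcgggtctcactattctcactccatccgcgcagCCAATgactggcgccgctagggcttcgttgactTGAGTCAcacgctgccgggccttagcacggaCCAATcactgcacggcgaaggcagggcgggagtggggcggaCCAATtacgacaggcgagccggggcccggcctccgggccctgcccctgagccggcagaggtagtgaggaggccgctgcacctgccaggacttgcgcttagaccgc
Hmgcs1 (chr13:119690101-119690400, plus strand): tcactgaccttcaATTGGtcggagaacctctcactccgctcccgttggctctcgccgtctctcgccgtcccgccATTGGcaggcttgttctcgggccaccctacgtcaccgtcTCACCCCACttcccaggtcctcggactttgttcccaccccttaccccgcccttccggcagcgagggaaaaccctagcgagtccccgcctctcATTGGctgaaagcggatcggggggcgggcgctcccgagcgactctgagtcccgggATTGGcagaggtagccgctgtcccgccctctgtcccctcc
Lbr (chr1:181842352-181842651, minus strand): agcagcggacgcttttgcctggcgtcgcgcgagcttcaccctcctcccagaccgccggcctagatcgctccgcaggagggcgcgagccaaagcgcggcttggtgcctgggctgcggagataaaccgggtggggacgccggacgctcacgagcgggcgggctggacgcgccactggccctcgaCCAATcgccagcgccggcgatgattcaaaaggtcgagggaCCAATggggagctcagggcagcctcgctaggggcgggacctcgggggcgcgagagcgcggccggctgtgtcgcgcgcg
Of the 27 genes 23 had a promoter entry, and a gene with several windows counted if any of them held the motif. CCAAT was present for 21 of these 23 genes (91.3%, all but Acat2 and Scap), against 42.7% of the 12108 measured genes with an entry and 37.4% of all 32851 windows. It occurred upstream of Lbr and Ggps1 as well as of Dhcr7. With only Acat2 and Scap lacking CCAAT, a relation to the direction of the difference could not be examined and was not tested. TCACNCCAC was present for Hmgcs1 alone, 137 bases before the start, 1 of 23 genes (4.35%) against 1.48% of measured genes and 1.24% of windows. TGAGTCA was present for Dhcr7 and Msmo1, 2 of 23 genes (8.70%) against 4.98% of measured genes and 5.20% of windows. It lay 106 bases before the start in the Dhcr7 window shown and 127 bases before the start of Msmo1. These matches describe letters in a short window and not binding.

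Of the genes that control SREBP2, Srebf2 alone passed 1.5-fold in all pairs. Srebf2, which encodes SREBP2 and is itself a sterol-regulated gene, had log2 signals of 2.38 and 2.30 on the Bach2KO arrays and of 1.58 and 1.66 on the WT arrays, a difference of 0.72. Its dimmer probe, assigned to the same transcript, differed by 0.17, so the probes of Srebf2 do not give one size. Scap, the sterol-sensing escort, had 2.87 and 2.79 on the Bach2KO arrays and 3.20 and 3.26 on the WT arrays, a difference of -0.40. The retention factor gene Insig1, itself an SREBP2 target, had -0.74 and -0.93 on the Bach2KO arrays and -1.39 and -1.20 on the WT arrays, a difference of 0.46. Insig2, its less sterol-responsive relative, had 0.90 on both Bach2KO arrays and 0.47 and 0.55 on the WT arrays, a difference of 0.39, with 0.15 for its other probe. None of the 4 was called, their median difference was 0.43, and all 4 were below 0 with spike-in scaling (from -1.16 for Scap to -0.04 for Srebf2).

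The remaining genes move sterols or supply acetyl-CoA. Tmem97, an endoplasmic reticulum protein that binds the lysosomal cholesterol transporter NPC1, had log2 signals of 2.35 and 2.37 on the Bach2KO arrays and of 1.35 and 1.42 on the WT arrays, a 1.96-fold difference that fell just short of a call (array pairs from 0.93 to 1.02). Stard4, a cytosolic sterol carrier, had 1.11 and 1.12 on the Bach2KO arrays and 0.64 and 0.49 on the WT arrays, a difference of 0.55, with 0.27 for its other probe. Acss2, the cytosolic synthetase that makes acetyl-CoA from acetate, had -2.05 and -2.12 on the Bach2KO arrays and -1.97 and -1.96 on the WT arrays, a difference of -0.12, and its dimmer probe differed by 0.15 with overlapping arrays. With spike-in scaling Tmem97 was at 0.21, Stard4 at -0.21 and Acss2 at -0.88.

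**Figure D2:**
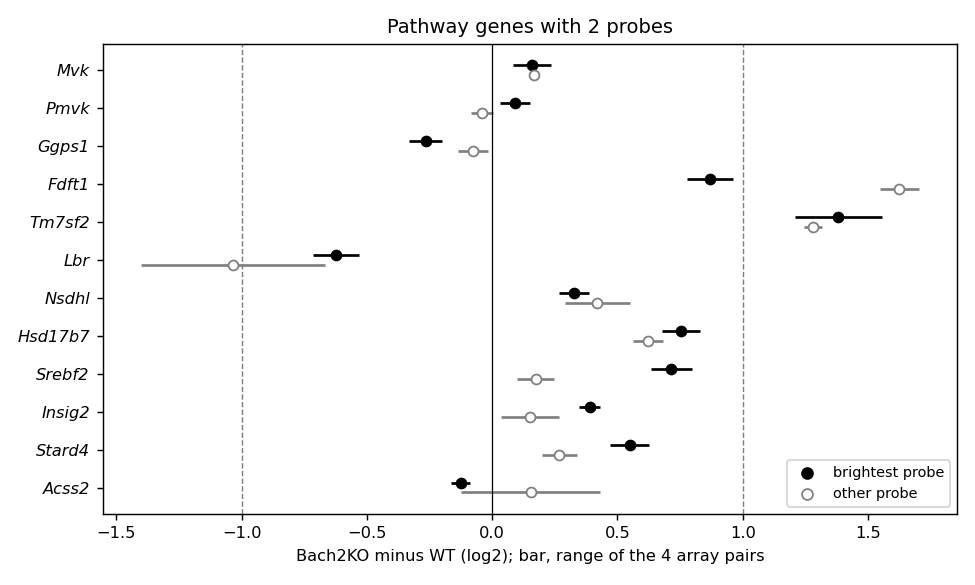
Bach2KO minus WT differences (log2, 75th percentile scaling) of the 12 genes with 2 probes. Filled circles are the brightest probe, open circles the other probe, bars the range of the 4 array pairs, and dashed lines 2-fold. Both probes of Tm7sf2 lie above 1 and both of Lbr below 0, whereas the probes of Fdft1 and Srebf2 lie apart (0.87 and 1.63, 0.72 and 0.17).

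Of the 27 genes 12 had 2 probes and 15 had 1. The probes differed in sign for Pmvk and Acss2, both near 0.

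Related genes were read by the same rule, which called 8.75% of all measured genes higher and 5.55% lower. A list of 10 further sterol pathway genes and SREBP2 targets held no higher gene, 1 lower gene and 9 that were neither, and its median was 0.41, or -0.35 with spike-in scaling. Lpin1, a phosphatidate phosphatase gene, had 1.01 and 0.96 on the Bach2KO arrays and 2.06 and 2.17 on the WT arrays, a 2.19-fold lower signal in Bach2KO.

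Genes of SREBP processing and of protein turnover at the endoplasmic reticulum met neither condition in all 16 cases, with a median of 0.11, close to that of all genes. Srebf1, which encodes the fatty acid-directed relative of SREBP2, had log2 signals of -1.80 and -1.51 on the Bach2KO arrays and of -1.54 and -1.68 on the WT arrays, so the genotypes overlapped. The most brightly detected members of this list, Vcp and Sec24c, which extract and export proteins from the endoplasmic reticulum, differed by 0.32 and 0.11. The 17 genes of the nonsterol isoprenoid branch also met neither condition, with a median of -0.02. Nus1, a subunit of the dolichol-making prenyltransferase, had 3.54 and 3.50 on the Bach2KO arrays and 2.44 and 2.50 on the WT arrays, a difference of 1.04 whose smallest array pair (0.99) missed the rule, and Fnta, a shared subunit of the protein prenyltransferases, differed by -0.32.

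Fatty acid genes under SREBP1 had a median of 0.56, or -0.20 with spike-in scaling. Of these 14 genes 3 were higher by the rule, 1 lower and 10 neither, against 8.75% higher and 5.55% lower of all measured genes. They spread far wider than the cholesterol genes, from -3.16 to 3.00. Acsl3, an acyl-CoA synthetase gene, had log2 signals of -0.57 and -0.60 on the Bach2KO arrays and of -3.52 and -3.67 on the WT arrays, 8.01-fold higher. The malic enzyme gene Me1, a source of NADPH, was 5.68-fold higher, with 0.26 and 0.30 on the Bach2KO arrays and -2.25 and -2.21 on the WT arrays. Elovl6, the elongase of long-chain fatty acids, was 8.92-fold lower, with -3.39 and -3.46 on the Bach2KO arrays and -0.27 on both WT arrays.

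Genes of the LXR pathway, through which sterol excess drives cholesterol export, were lower for 3 of 9 and higher for none, with 6 neither and a median of -0.57. Of all measured genes 5.55% were lower and 8.75% higher. At 1.5-fold in all pairs 4 of the 9 were lower and 2 higher, against 11.8% and 15.7% of all genes. The 2 higher were the LXR gene Nr1h3, with a difference of 0.89, and Apoe, with 0.91, so the list did not move in 1 direction. Abca1, the cholesterol exporter, had log2 signals of -0.67 and -0.76 on the Bach2KO arrays and of 1.69 and 1.79 on the WT arrays, Mylip, a ubiquitin ligase gene induced by LXR, had -1.15 and -0.94 on the Bach2KO arrays and 1.79 and 1.87 on the WT arrays, and the phospholipid transfer protein gene Pltp was 3.47-fold lower. In cholesterol trafficking and storage the median was 0.62, or -0.14 with spike-in scaling, and the rule called 4 of 14 genes higher and 1 lower. Ch25h, which makes an oxysterol that blocks SREBP2 processing, had 5.07 and 5.00 on the Bach2KO arrays and 1.84 and 1.94 on the WT arrays, 8.84-fold higher. Npc2, the lysosomal cholesterol carrier, was 2.41-fold higher, and the lipoprotein receptor gene Scarb1 was 2.98-fold lower. With spike-in scaling Ch25h alone of the 4 higher genes kept its call (2.39), and Npc2 (0.51), Soat1 (0.37) and Gramd1b (0.33) did not.

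**Figure D3:**
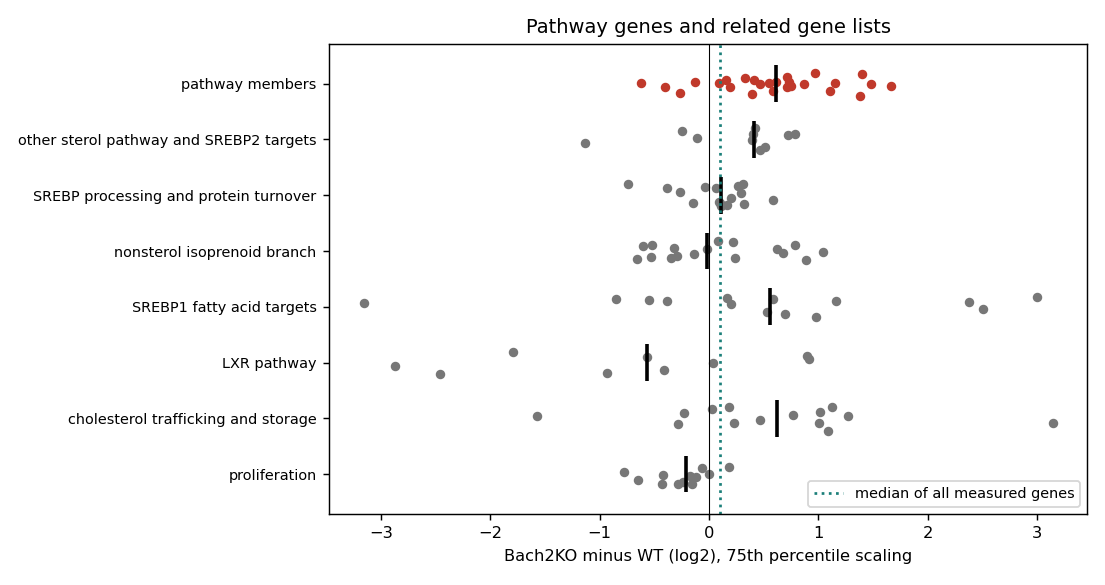
Bach2KO minus WT differences (log2, 75th percentile scaling) of the 27 pathway genes (red) and of 7 related lists (grey), with 1 point a gene, vertical position within a row random and black bars at the medians. The dotted line is the median of all measured genes (0.10). The pathway genes lie between -0.62 and 1.66 with a median of 0.61, which becomes -0.15 with spike-in scaling, and the LXR list has a median of -0.57.

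Other cells and cell division were examined beside these values, since the RNA is from sorted pools in which fewer cells of a type and less RNA per cell cannot be told apart. None of the 12 proliferation genes was called, with a median of -0.21, and the brightest, Pcna and Mcm3, differed by -0.06 and -0.42. With 75th percentile scaling, some markers of several other cells were higher in Bach2KO. The markers named below as not above background in WT were measured only because they passed the background limit in Bach2KO. Their direction therefore follows in part from that filter, and all of them but Col3a1 were called higher. Epcam was measured only through the WT arrays and was called lower. The 2-fold rule called 8.75% of all measured genes higher and 5.55% lower. Monocyte and interstitial macrophage markers were higher for 5 of 11 measured, 1 lower and 5 neither, with summed signals in units of the 75th percentile of 92.6 and 91.9 on the Bach2KO arrays and 71.8 and 74.2 on the WT arrays, and Lyve1 not well above background in WT. Neutrophil markers were higher for 3 of 7, 1 lower and 3 neither (sums 55.8 and 55.6 in Bach2KO, 46.2 and 45.1 in WT; S100a9 and Retnlg not above background in WT), and T cell markers for 4 of 8, none lower and 4 neither (10.5 and 10.5 in Bach2KO, 8.22 and 7.39 in WT; Cd3d and Cd3g not above background in WT). Endothelial markers were higher for 3 of 6, none lower and 3 neither, with sums of 32.7 and 32.9 in Bach2KO and 15.2 and 16.3 in WT. Linear sums are carried mostly by the brightest markers of a list and do not measure cell numbers. In the endothelial list that marker was Vwf, with log2 means of 4.57 in Bach2KO and 3.17 in WT. Markers of the type 2 and airway epithelium, which itself makes surfactant lipid, were higher for 2 of 8, lower for 1 and neither for 5, with sums of 23.4 and 24.0 in Bach2KO and 22.1 and 22.0 in WT; Sftpb was not above background in WT, nor Epcam in Bach2KO. B cell markers were higher for 1 of 6 (3.61 and 3.48 in Bach2KO, 2.65 and 2.62 in WT; Cd79b not above background in WT), fibroblast markers for 1 of 5 (0.42 and 0.50 in Bach2KO, 0.26 and 0.23 in WT; Col3a1 and Pdgfra not above background in WT) and dendritic cell markers for none of 3 (0.44 and 0.43 in Bach2KO, 0.37 and 0.36 in WT), with none lower in these lists. With spike-in scaling the median difference was above 0 for the monocyte and interstitial macrophage (0.20), neutrophil (0.42) and T cell (0.44) markers. It was below 0 for the endothelial (-0.03), epithelial (-0.49), B cell (-0.45), fibroblast (-0.06) and dendritic cell (-0.52) markers. The sums above hold with 75th percentile scaling alone, and the shift of -0.76 would lower the Bach2KO sums relative to WT. It would put the monocyte and interstitial macrophage, neutrophil and T cell sums below WT, although the medians of these lists stayed above 0. The part of these cells in the differences of the cholesterol genes was not tested.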

How the data were processed

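Deposited scanner files give linear spot intensity after background subtraction and spatial detrending, with no scaling between arrays. The file headers name Agilent Feature Extraction 10.7.3.1, and the submitters' processing notes give version 9.1. The deposited value table holds log2 values, which equal the log2 processed signal of the same array minus a constant close to its 75th percentile (SD of that offset, single-spot probes, 3.2e-07 to 3.5e-07), so that its scale, centring and direction are known. Its column medians were -3.53 and -3.45 for Bach2KO and -3.58 and -3.67 for WT.

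Control spots and outlier spots (109 to 136 of 43020 an array) were left out, log2 signals were averaged over a probe's spots, and the 75th percentile over probes was subtracted. No spot was saturated. Probes were named through unversioned RefSeq accessions in a gene table of GRCm38.p6 (26055 of 39429 had 1 symbol, the others none); the array was designed on mm9, so probe coordinates are not given. Every pathway gene is described. Of each related list up to 3 called genes, or else the 2 brightest, were chosen for naming, and of the marker lists genes not above background. Soat1, Gramd1b, Nr1h3, Apoe and Vwf are named in addition. Srebf1 and Bach2 were added by name. Some related genes are not reported here and were left out of the list of further sterol pathway genes. The members, lists and alternatives were chosen with earlier results of these data known, and the 75th percentile over spots was added after seeing the data. The number of arrays limits the precision. Python 3.11.15 was used, with limma 3.58.1 in R 4.3.3 for normexp background correction alone.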

Additional observations from a re-analysis of the deposited data

How the results depend on the processing

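The count of 6 higher and 0 lower pathway genes and their median difference of 0.61 were recomputed under 16 alternatives. The spike-in scaling changed the picture most, with 0 genes higher, 1 lower (Lbr) and a median of -0.15, which reversed the sign; the cause was not tested. Median centring gave a median of 0.47 and 4 genes higher, without Sqle and Msmo1, quantile normalization and normexp background correction (offset 50, on median spot signals) each gave 5, without Msmo1, and averaging probes gave 7, with Fdft1. At 1.5-fold in all pairs 13 were higher, as a lower threshold must allow at least as many. The deposited value table, the 75th percentile over spots, both other filters on dim probes, outlier spots kept and 2-fold on array means each gave the same 6 genes. Leaving out each array in turn gave 6 to 6 higher, 0 to 0 lower and medians from 0.60 to 0.64, with the same 6 genes. Over all genes, the share of higher genes among the calls was 61.2%, against 52.8% when centred on medians, 55.5% after quantile normalization and 16.3% with spike-in scaling, where 627 were higher and 3214 lower in place of 1324 and 840; at 1.5-fold these were 2373 and 1788. Of 616 recomputed differences of 44 pathway and related genes, 133 moved by more than the combined SD of the gene's repeat arrays. No called gene changed sign, and sign changes of the other genes were not counted there. No paired analysis was possible because the arrays of a genotype are 2 parts of 1 RNA sample and no result comes from a test. With 2 RNA samples and no biological replicate, all 6 calls of pathway genes and the sign of 15 of the 27 differences depend on the choice between 75th percentile and spike-in scaling.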
